A study of Homo sapiens with 17 samples.

Results

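Acute-phase and epithelial antimicrobial genes were followed as a set of 10 named genes, LCN2, SAA1, SAA2, PI3, SLPI, WFDC2, NOS2, S100A8, S100A9 and DUOX2, taken by symbol from the 26457 genes listed in the deposited mRNA-seq table. Each of the 10 symbols was listed. SW480 is a colon cancer cell line of human origin, with mutant p53 (mutp53). The 4 groups were SW480 cells that stably carry a doxycycline-inducible short hairpin RNA against LacZ (shLacZ, called control here) or against p53 (shp53, mutp53-depleted), each before (0 h) and at 16 h of treatment with 12.5 ng/ml TNF-α. All 4 groups shared puromycin at 1.5 µg/ml and doxycycline at 1 µg/ml, so the control cells also expressed a hairpin. Whether each hairpin line is a single clone is not given in the sources used here. Each hairpin has its own line, so loss of mutp53 and any other difference between the lines cannot be told apart. Depletion is used here as the name of the comparison between the lines, also where a gene is said to be raised or lowered by it. The value of a gene is the number of reads on its exons multiplied by 1 factor per library that gives all libraries the same total, and is called normalized reads. With 2 replicate libraries per group, A and B, p-values measure the spread between these libraries. For each gene this spread was estimated partly from the other genes tested. In bulk RNA, fewer cells that express a gene and less of its RNA per cell cannot be told apart.

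These genes serve the early defence of epithelia and the acute-phase response. The serum amyloid A proteins SAA1 and SAA2 are acute-phase apolipoproteins, made in large amounts by the liver in inflammation and also by inflamed epithelia. LCN2 encodes lipocalin 2, which starves bacteria of iron by binding their siderophores. PI3 (elafin), SLPI and WFDC2 carry whey acidic protein (WAP) domains, and the first 2 are inhibitors of neutrophil elastase. S100A8 and S100A9 form calprotectin, a metal-binding antimicrobial complex best known from neutrophils. DUOX2 is an epithelial enzyme that makes hydrogen peroxide, and NOS2 is the inducible nitric oxide synthase. Many of them are known targets of NF-κB, the transcription factor that TNF-α activates, or of C/EBP factors.

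Reads on genes numbered between 6108488 and 13809578 per library, and 1 read equalled between 0.67 and 1.515 normalized reads. The table's coordinates are those of hg19. Of 8 colon epithelial markers, 7 were read and CDX1 was at 0, and their summed level lay between 42720 and 70160 normalized reads. It lay between 65700 and 70160 in the control 0 h libraries and between 42720 and 43900 in the mutp53-depleted 16 h libraries. With TNF-α in control cells CDH1 (log2 -2.51, adjusted p = 1.1e-10 by limma) and CDX2 (log2 -1.07, adjusted p = 1.1e-08 by limma) were called lower. CDH1 was also called lower with TNF-α in mutp53-depleted cells (log2 -2.15, adjusted p = 1.4e-09 by limma). EPCAM was called lower on depletion at 0 h and 16 h (log2 -1.29 and -1.06, adjusted p = 2.4e-10 and 2.8e-09 by limma). No epithelial marker was called higher. Of 10 leukocyte markers, PTPRC, CSF3R, FCGR3B, MPO and ELANE were at 0 reads in all libraries, 4 had more than 3 reads in any library, and the summed level was between 42.4 and 56.6 normalized reads in the control 0 h libraries and between 65.4 and 78.3 at 16 h, and between 55.0 and 64.4 and between 106 and 109 in the mutp53-depleted libraries. ITGAM (log2 4.08, adjusted p = 8.4e-05 by limma) and CD68 (log2 1.08, adjusted p = 0.0031 by limma) were called higher with TNF-α in control cells. CD14 was called lower there (log2 -1.21, adjusted p = 0.037 by limma). The part of these markers in the results was not tested. Of 6 hepatocyte markers 1 had more than 3 reads, TTR was at 0, and the summed level lay between 0 and 4.02. Of 6 fibroblast and endothelial markers 2 had more than 3 reads, COL3A1 and DCN were at 0, and the summed level was between 28.0 and 40.6 in the control libraries and between 66.2 and 128.9 in the mutp53-depleted ones. COL1A1 and VWF were called higher on depletion at 0 h (log2 1.51 and 1.84, adjusted p = 3.1e-05 and 0.0064 by limma). The medians of the 51 genes tested around each were 0.59 and 0.95. VWF was also called higher at 16 h (log2 2.62, adjusted p = 0.00038 by limma).

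Of the 10 genes, 3 were too weakly read to judge. S100A8 (NM_002964, chromosome 1) and DUOX2 (NM_014080, chromosome 15) had 0 reads in all 8 libraries, among 74032587 reads on genes, which allows up to 3 reads. S100A9 (NM_002965, chromosome 1) had 1 read in the control 0 h replicate B library and 1 read in the control 16 h replicate B library and 0 in the other libraries. DUOXA2, the maturation factor that DUOX2 needs, also had 0 reads, and DUOX1, its close relative, had 1 read in all. The limits cover counting error only. No test was run on these 3 members. The other 7 had a mean of at least 2.5 normalized reads over the 8 libraries, the filter used for testing, and the plot of the 7 genes by library shows all of their values.

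**Figure D1:**
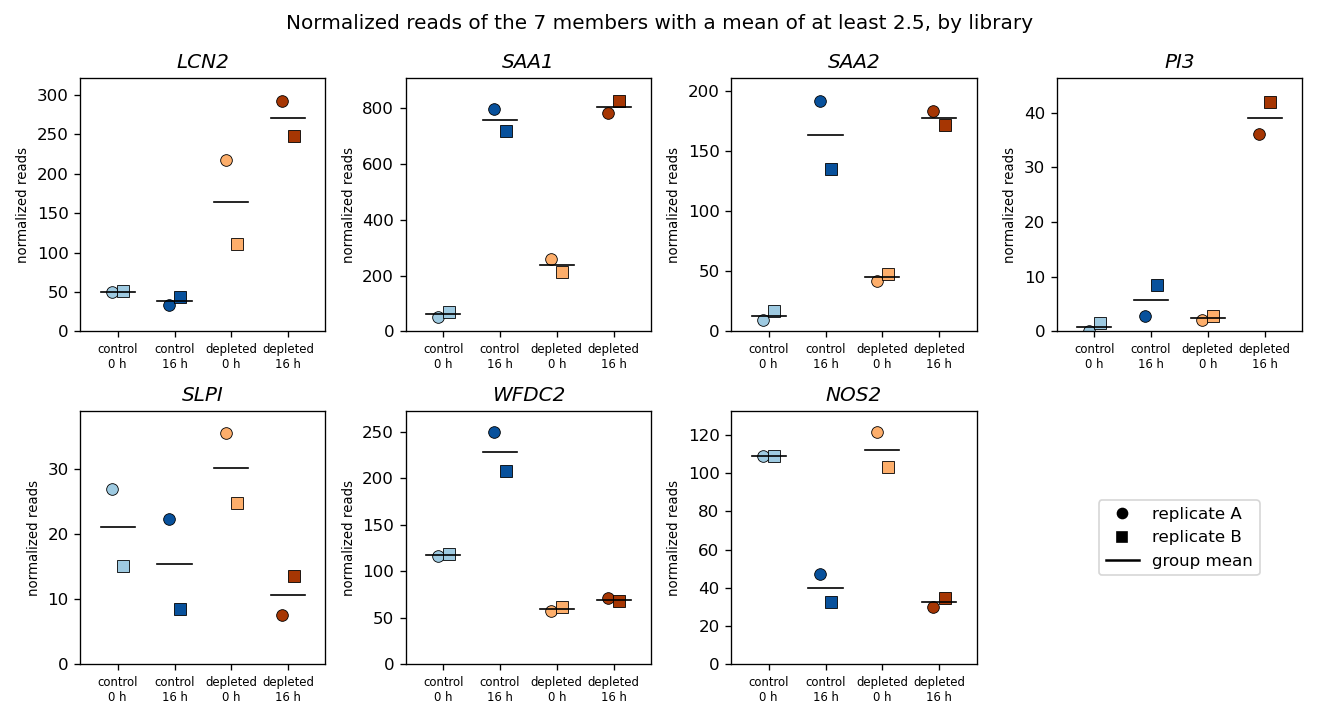
Normalized reads (y axis, linear and starting at 0, with its own range in each panel) of the 7 tested genes in the 4 groups (x axis). Each symbol is 1 library (circles replicate A, squares replicate B) and each line a group mean of 2 libraries. SAA1 and SAA2 were near the same level in both lines at 16 h, LCN2 and PI3 were highest in mutp53-depleted cells at 16 h, WFDC2 was highest in control cells at 16 h, and NOS2 was low in both lines at 16 h.

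Levels can be set against each other per kilobase of exon. In control cells at 0 h WFDC2 had the highest level, 209 normalized reads per kb, followed by SAA1 at 91.5 and LCN2 at 60.3. SLPI, NOS2 and SAA2 followed at 35.6, 26.1 and 22.2 per kb, with libraries that overlapped from each gene to the next in this order. PI3 lay at 1.37 per kb, and its libraries overlapped those of S100A9. After TNF-α in control cells SAA1 led at 1128 per kb, ahead of WFDC2 at 407, SAA2 at 278 and LCN2 at 46.6, and SLPI, PI3 and NOS2 overlapped in turn between 26.1 and 9.59 per kb. In mutp53-depleted cells at 0 h the order was SAA1 at 352, LCN2 at 197, WFDC2 at 106, SAA2 at 76.7, SLPI at 51.02, NOS2 at 26.8 and PI3 at 4.32 per kb, with no overlap between neighbours. At 16 h SAA1 had 1198 per kb, LCN2 and SAA2 overlapped at 323 and 302, and WFDC2 with 124, PI3 with 70.9, SLPI with 17.9 and NOS2 with 7.75 per kb followed without overlap.

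To find which of the genes answered to TNF-α, to mutp53 depletion or to both, log2(normalized reads + 1) was compared with limma over the 14800 genes that passed the filter. Calls needed a change of at least 2-fold and a p, adjusted by Benjamini-Hochberg, under 0.05. The interaction, which is the TNF-α response in mutp53-depleted cells less that in control cells, was called at the adjusted p alone. Differences are on the log2(value + 1) scale, which understates the change of low genes. The 2-fold limit was applied to these differences, whereas the folds given are ratios of the group means of normalized reads. The TNF-α comparison in control cells and the depletion comparison at 0 h share the control 0 h libraries, and the other comparisons share groups in the same way. After TNF-α in control cells SAA1, SAA2 and PI3 were called higher and NOS2 lower, while LCN2, SLPI and WFDC2 were not called. Of all genes tested, 2.97% were called higher and 4.27% lower in that comparison. After TNF-α in mutp53-depleted cells SAA1, SAA2 and PI3 were called higher and NOS2 and SLPI lower, against 1.86% and 4.5% of all genes. On depletion at 0 h LCN2, SAA1 and SAA2 were called higher and no member lower, against 5.89% and 9.55%. On depletion at 16 h LCN2 and PI3 were called higher and WFDC2 lower, against 5.03% and 10.2%. Most of the mean of PI3 used by the filter came from the mutp53-depleted 16 h libraries, so its calls that use them are a description. The interaction was called lower for SAA1 and SAA2 and higher for no member, against 2.21% and 0.655% of all genes.

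**Figure D2:**
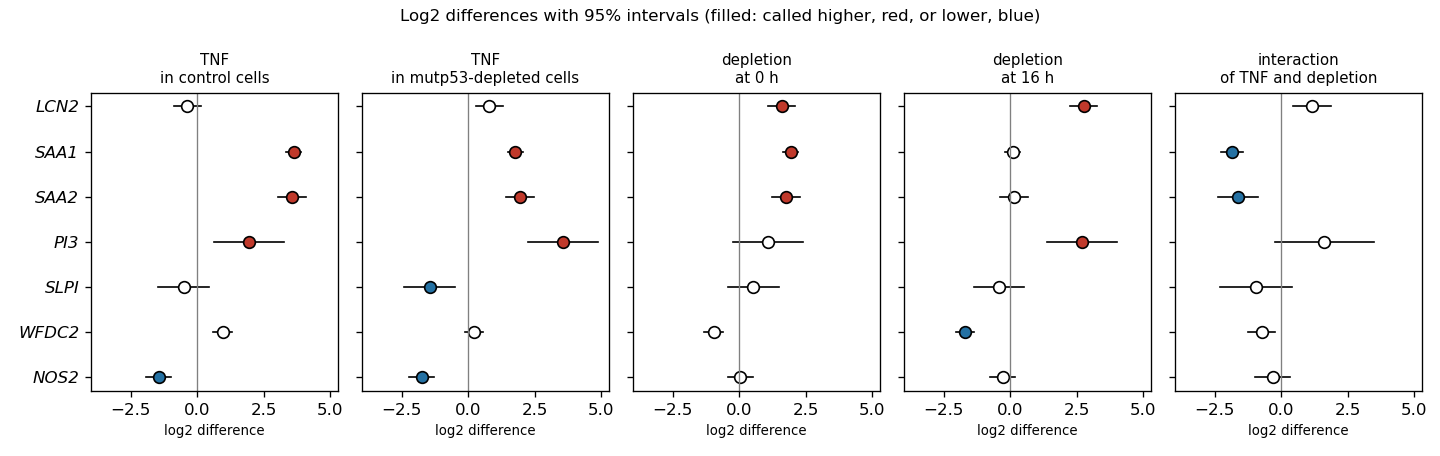
Log2 difference (x axis) of the 7 tested genes (y axis) in the 5 comparisons, with 95% intervals from limma as lines. Filled points were called higher (red) or lower (blue), and open points were not called. SAA1 and SAA2 moved 3.62 and 3.58 with TNF-α in control cells and 1.77 and 1.96 in mutp53-depleted cells, and on depletion both were called at 0 h and lay near 0 at 16 h.

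The acute-phase genes SAA1 and SAA2 rose with TNF-α in both lines, and the rise was smaller in mutp53-depleted cells, which held more of both transcripts before TNF-α. SAA1 (NM_000331, chromosome 11, 18287808 to 18291523, plus strand) had 51.5 and 71.2 normalized reads in control cells before TNF-α and 796 and 718 at 16 h. In mutp53-depleted cells it had 259 and 214 at 0 h and 783 and 824 at 16 h. The groups did not overlap between times in either line, nor between lines at 0 h, whereas at 16 h the control libraries and the mutp53-depleted libraries overlapped.

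TNF-α raised SAA1 12.3-fold in control cells (log2 3.62, SE 0.14, adjusted p = 1.1e-12 by limma) and 3.4-fold in mutp53-depleted cells (log2 1.77, adjusted p = 1.8e-08 by limma). Depletion raised it 3.85-fold at 0 h (log2 1.94, adjusted p = 1.6e-09 by limma). The depletion difference at 16 h was 0.09 on the log2 scale (adjusted p = 0.62 by limma). The interaction was -1.85 (SE 0.19, adjusted p = 2.6e-05 by limma), and it did not pass when the filter on low genes was removed (adjusted p = 0.13 by limma).

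SAA2 (NM_030754, chromosome 11, 18266775 to 18270221, minus strand) lies beside SAA1 and followed the same order of groups. It had 9.43 and 16.7 normalized reads in control cells before TNF-α, 191 and 135 in the control 16 h libraries, 42.2 and 48.0 in the mutp53-depleted 0 h libraries, and 184 and 172 in the mutp53-depleted 16 h libraries. As for SAA1, the lines were apart at 0 h and overlapped at 16 h.

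SAA2 rose 12.5-fold with TNF-α in control cells (log2 3.58, adjusted p = 3.9e-09 by limma) and 3.94-fold in mutp53-depleted cells (log2 1.96, adjusted p = 1.2e-05 by limma). The depletion difference was 1.76 at 0 h (adjusted p = 1.1e-05 by limma) and 0.14 at 16 h (adjusted p = 0.67 by limma). Its interaction was -1.62 (SE 0.36, adjusted p = 0.016 by limma). It missed the threshold without control 0 h replicate A (adjusted p = 0.062), control 16 h replicate A (0.091), mutp53-depleted 0 h replicate B (0.087) or mutp53-depleted 16 h replicate B (0.067), and with no filter on low genes (0.37).

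The values of SAA1 and SAA2 are not fully separate, because the genes are near-identical copies. Of the 1175 distinct 50-base runs in the annotated SAA1 transcripts, 402 (34.2%) also occur in transcripts of SAA2, and 17.8% of the 2255 runs of SAA2 occur in SAA1. Reads of such runs could be counted to either gene or dropped, and how the counting treated them was not tested. The share of SAA2 among the reads on both genes lay between 14.0% and 19.4% in the 8 libraries. SAA4, the constitutive serum amyloid A gene of the same cluster, had 2.9 and 0 normalized reads in control cells before TNF-α and 21.3 and 18.5 at 16 h, and the SAA2-SAA4 readthrough gene, which shares exons with both, had 3.63 and 4.54 at 0 h and 65.7 and 39.8 at 16 h.

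LCN2 did not follow the serum amyloid genes. It was higher in mutp53-depleted than in control cells at both times, and was not called with TNF-α in either line. LCN2 (NM_005564, chromosome 9, 130911709 to 130915734, plus strand) had 49.4 and 51.5 normalized reads in control cells before TNF-α and 33.8 and 44.1 at 16 h. In mutp53-depleted cells it had 218 and 111 at 0 h and 293 and 248 at 16 h. All 4 mutp53-depleted libraries lay above all 4 control libraries, and the mutp53-depleted 0 h pair was the widest pair of the 4.

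Depletion raised LCN2 3.26-fold at 0 h (log2 1.61, SE 0.24, adjusted p = 2.1e-05 by limma) and 6.94-fold at 16 h (log2 2.77, adjusted p = 2.7e-08 by limma). The TNF-α difference was -0.38 in control cells (adjusted p = 0.29 by limma) and 0.79 in mutp53-depleted cells (adjusted p = 0.022 by limma), under the 2-fold limit. The interaction, 1.16, missed the threshold (adjusted p = 0.085 by limma). Without mutp53-depleted 0 h replicate A, the TNF-α difference in mutp53-depleted cells was 1.27 (adjusted p = 0.0016 by limma) and the interaction 1.65 (adjusted p = 0.011 by limma), and both were then called. Without mutp53-depleted 0 h replicate B they were 0.31 (adjusted p = 0.43 by limma) and 0.68 (adjusted p = 0.46 by limma), so each rests on which library of that pair is kept.

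WFDC2, an epithelial WAP protein that is also known as the tumour marker HE4, moved against LCN2 on depletion at 16 h. WFDC2 (NM_006103, chromosome 20, 44098394 to 44110172, plus strand) had 116 and 118 normalized reads in control cells before TNF-α and 249.4 and 207.7 at 16 h. In mutp53-depleted cells it had 57.6 and 61.7 at 0 h and 71.3 and 67.9 at 16 h. Every mutp53-depleted library lay below every control library, and the TNF-α groups were apart in both lines.

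The mutp53-depleted level at 16 h was 3.29-fold lower than the control level (log2 -1.70, adjusted p = 1.2e-07 by limma). At 0 h the difference was -0.96 (adjusted p = 9.4e-05 by limma), under the 2-fold limit, and the mean was 1.96-fold lower. TNF-α changed WFDC2 by 0.95 in control cells (1.95-fold, adjusted p = 0.00028 by limma) and by 0.22 in mutp53-depleted cells (adjusted p = 0.37 by limma). The differences of 0.95 and -0.96 fell on the other side of the limit with edgeR's quasi-likelihood test on the recovered reads, where they were 1.02 and -1.01. Both were also called with edgeR's exact test and with DESeq2. Without control 16 h replicate B the TNF-α difference in control cells was 1.08. Without mutp53-depleted 0 h replicate B the depletion difference at 0 h was -1.01. The interaction was -0.73 (adjusted p = 0.12 by limma).

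Promoter sequences from RefSeq (GRCh38.p14) matched 5 of the 10 genes, LCN2, WFDC2, S100A8, S100A9 and DUOX2, while SAA1, SAA2, PI3, SLPI and NOS2 were not matched in the table used here. The 250 bases before the start of LCN2 (chr9:128149203-128149452, plus strand) and of WFDC2 (chr20:45469503-45469752, plus strand) are shown because these 2 genes moved in opposite directions on depletion at 16 h. Capitals mark matches, on either strand, to an NF-κB pattern, GGGNNNNNCC, and to a C/EBP pattern, TTNNGNAA.
LCN2: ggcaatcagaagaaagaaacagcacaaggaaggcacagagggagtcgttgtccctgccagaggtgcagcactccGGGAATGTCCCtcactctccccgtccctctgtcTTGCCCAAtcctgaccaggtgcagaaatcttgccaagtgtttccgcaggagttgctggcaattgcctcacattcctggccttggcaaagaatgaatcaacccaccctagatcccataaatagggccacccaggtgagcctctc
WFDC2: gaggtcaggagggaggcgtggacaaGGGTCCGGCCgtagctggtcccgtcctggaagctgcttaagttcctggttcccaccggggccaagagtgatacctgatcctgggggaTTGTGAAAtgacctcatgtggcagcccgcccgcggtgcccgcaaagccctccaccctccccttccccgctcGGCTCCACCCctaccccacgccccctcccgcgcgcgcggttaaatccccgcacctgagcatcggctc
In LCN2 the NF-κB pattern matched from 176 to 167 bases before the start on the plus strand and, overlapping it, from 175 to 166 on the minus strand. The C/EBP pattern matched there from 143 to 136 on the minus strand. In WFDC2 the NF-κB pattern matched from 225 to 216 on the plus strand and from 67 to 58 on the minus strand. The C/EBP pattern matched there from 138 to 131 on the plus strand. Both patterns are common. Of 35097 promoters of this length, 54.4% held the NF-κB pattern and 33.2% the C/EBP pattern. The matches are descriptions of letters in these windows, and no binding was measured here.

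The elastase inhibitor PI3 was almost unread except in mutp53-depleted cells after TNF-α. PI3 (NM_002638, chromosome 20, 43803540 to 43805185, plus strand) had 0 and 1.51 normalized reads in control cells before TNF-α, 2.9 and 8.54 in the control 16 h libraries and 2.01 and 2.74 in the mutp53-depleted 0 h libraries. The mutp53-depleted 16 h libraries had 36.0 and 42.0. These last 2 libraries, with 43 and 34 reads, stood above the other 6, none of which had more than 6 reads.

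With 77 against 5 reads, the ratio of 16 h to 0 h in mutp53-depleted cells was 17.1, with an exact 95% interval of 7.01 to 54.1 that covers counting error only. Against control cells at 16 h, 77 reads stood against 9, a ratio of 7.42 (3.71 to 16.8). Both differences were called, with TNF-α in mutp53-depleted cells (log2 3.57, adjusted p = 0.00028 by limma) and on depletion at 16 h (log2 2.71, adjusted p = 0.0013 by limma). With no filter the latter had an adjusted p of 0.051 by limma and was not called. Most of the mean of PI3 used by the filter came from the mutp53-depleted 16 h libraries, so its calls that use them are given as a description.

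In control cells the TNF-α call (log2 1.94, adjusted p = 0.027 by limma) rested on 9 reads against 1, a ratio of 10.6 with an interval of 1.46 to 463. It was lost without control 0 h replicate A (adjusted p = 0.2), without control 16 h replicate B (0.24), with no filter (0.2), with a pseudocount of 5 (0.06) and with DESeq2 (0.099). The depletion difference at 0 h, 1.08, was not called (adjusted p = 0.15 by limma). The interaction, 1.63, missed the threshold (adjusted p = 0.46 by limma) and passed it with a pseudocount of 5 (1.72, adjusted p = 0.046 by limma).

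SLPI, the other elastase inhibitor of the set, was low and varied between replicates. SLPI (NM_003064, chromosome 20, 43880880 to 43883205, minus strand) had 26.9 and 15.2 normalized reads in control cells before TNF-α and 22.2 and 8.54 at 16 h. The mutp53-depleted libraries had 35.5 and 24.7 at 0 h and 7.55 and 13.6 at 16 h. The control groups overlapped, and the mutp53-depleted groups did not.

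The TNF-α difference in mutp53-depleted cells was -1.46 (SE 0.45, adjusted p = 0.023 by limma), 2.85-fold lower. It was lost without mutp53-depleted 0 h replicate A (-1.20, adjusted p = 0.18), 0 h replicate B (-1.71, adjusted p = 0.052) or 16 h replicate A (-1.07, adjusted p = 0.16), with no filter (adjusted p = 0.31) and with DESeq2 (adjusted p = 0.064). In control cells the difference was -0.51 (adjusted p = 0.46 by limma). Depletion gave 0.53 at 0 h (adjusted p = 0.34 by limma) and -0.42 at 16 h (adjusted p = 0.47 by limma), and the interaction was -0.94 (adjusted p = 0.57 by limma).

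NOS2, the inducible nitric oxide synthase, fell with TNF-α in both lines. NOS2 (NM_000625, chromosome 17, 26083792 to 26127555, minus strand) had 108.9 and 109.1 normalized reads in control cells before TNF-α and 47.4 and 32.7 at 16 h. In mutp53-depleted cells it had 121 and 103 at 0 h and 30.2 and 34.6 at 16 h. The 4 libraries at 0 h lay above the 4 at 16 h, and the lines overlapped at each time.

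NOS2 was 2.72-fold lower after TNF-α in control cells (log2 -1.45, SE 0.22, adjusted p = 7.4e-05 by limma) and 3.46-fold lower in mutp53-depleted cells (log2 -1.76, adjusted p = 9.9e-06 by limma). The depletion differences were 0.04 at 0 h (adjusted p = 0.91 by limma) and -0.28 at 16 h (adjusted p = 0.31 by limma). The interaction was -0.31 (adjusted p = 0.74 by limma).

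Some chromosome regions of the 2 lines differ as a block, so each depletion difference was set beside the median of the 51 genes tested around the gene on its chromosome, the gene included. Around LCN2 this median was -0.12 at 0 h and -0.28 at 16 h, against 1.61 and 2.77 for LCN2. Around SAA1 it was 0.15 and 0.09, against 1.94 and 0.09, and the 16 h median was the value of SAA1 itself. Around WFDC2 it was -0.01 and -0.12, against -0.96 and -1.70, and around PI3 -0.05 and -0.11, against 1.08 and 2.71. The windows of the 7 members had medians between -0.28 and 0.15 in both comparisons. PI3, SLPI and WFDC2 lie close to each other on chromosome 20, and their depletion differences at 0 h were 1.08, 0.53 and -0.96.

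**Figure D3:**
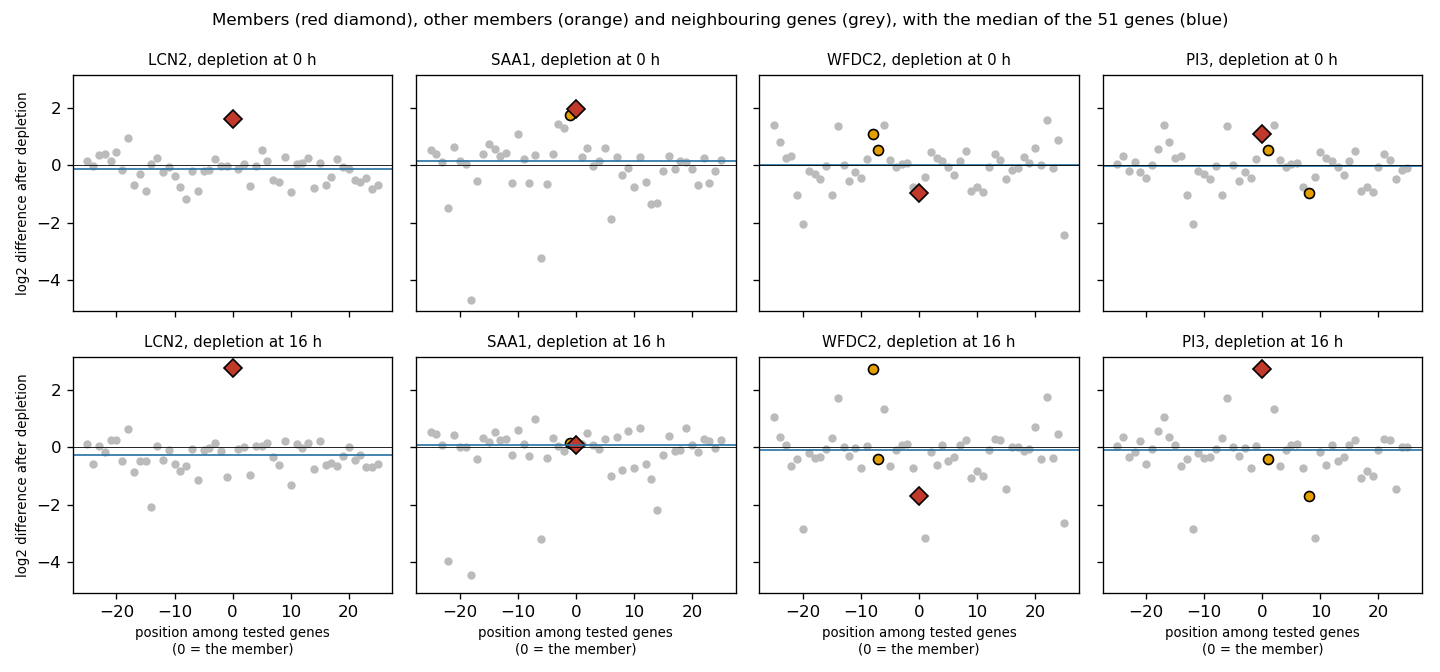
Log2 difference on depletion (y axis) of LCN2, SAA1, WFDC2 and PI3 (red diamonds) and of the genes around them (grey), by position among the tested genes of the chromosome (x axis, 0 is the member). Orange points are other members, and the blue line is the median of the 51 genes. LCN2 stands at 1.61 and 2.77 where its window's median is -0.12 and -0.28. SAA1 stands at 1.94 at 0 h and at 0.09 at 16 h, where it is itself the median gene of its window.

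Other genes of the same functions were taken from lists. Of 22 other acute-phase plasma protein genes, 8 had 0 reads and 5 were tested, and after TNF-α 2 were called higher and 1 lower in control cells and 2 higher in mutp53-depleted cells. Of all genes, 2.97% were called higher and 4.27% lower in the control line, and 1.86% and 4.5% in the depleted line. SERPINA1, which encodes the protease inhibitor alpha-1 antitrypsin, had 1077 and 1039 normalized reads in control cells before TNF-α and 5116 and 4762 at 16 h (log2 2.22, adjusted p = 1.4e-10 by limma). It had 715 and 506 in mutp53-depleted cells at 0 h and 2927 and 2320 at 16 h (log2 2.11, adjusted p = 4.5e-10 by limma). SAA4 rose by 3.40 and 1.95 on the log2 scale in the 2 lines (adjusted p = 0.00033 and 0.023 by limma). It lies in the cluster of SAA1 and SAA2 and shares exons with the SAA2-SAA4 readthrough gene, which rose by 3.37 and 1.98. How reads on the shared exons were counted was not tested. A2M, the protease inhibitor alpha-2-macroglobulin, fell by 1.91 in control cells (adjusted p = 0.021 by limma) and was lower on depletion at 0 h (log2 -2.50, adjusted p = 0.0014 by limma), in a window with a median of 0.91. A2M passed the filter only through the control 0 h libraries, which both of these differences use. ITIH3 was listed at 0 in both control 0 h libraries and at 8.04 and 8.23 in the mutp53-depleted 0 h libraries. It passed the filter only through the mutp53-depleted libraries, so its calls on depletion are a description. The median TNF-α difference of the 5 tested genes was 1.62 in the control line, the value of ITIH3, which was not called there, and 0.82 in the depleted line, beside -0.05 and -0.06 for all genes.

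Of 31 other antimicrobial protein genes, such as defensins, cathelicidin and ribonucleases, 19 had 0 reads and 4 were tested. RNASE4 and ANG, ribonucleases that share their first exons and cannot be separated fully by exon counting, were each called once with TNF-α. RNASE4 fell by 1.26 in control cells (adjusted p = 0.048 by limma) and ANG by 2.09 in mutp53-depleted cells (adjusted p = 0.036 by limma), and ANG was also lower on depletion at 16 h (log2 -1.96, adjusted p = 0.028 by limma). The ANG libraries of mutp53-depleted cells overlapped, at 17.4 and 4.11 before TNF-α and 4.19 and 0 at 16 h. LYZ, lysozyme, was higher on depletion at 0 h (log2 1.63, adjusted p = 0.026 by limma), with at most 15.4 normalized reads and in a window with a median of 0.69. The median of the 4 with TNF-α was -0.73 in the control line and -1.05 in the depleted line, beside -0.05 and -0.06 for all genes.

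Of 15 other listed genes of the WAP family, 10 had 0 reads and 2 were tested, both neighbours of WFDC2 on chromosome 20. WFDC3 had 28.3 and 21.2 normalized reads in control cells before TNF-α and 83.1 and 89.6 at 16 h (log2 1.77, adjusted p = 1.3e-05 by limma), and 34.9 and 32.9 at 0 h and 77.1 and 75.3 at 16 h in mutp53-depleted cells (log2 1.15, adjusted p = 0.0012 by limma). WFDC10B had 20.3 and 14.2 in control cells at 16 h and at most 3.03 in each other library. It passed the filter only through the control 16 h libraries, so its calls with TNF-α in control cells (log2 2.18) and on depletion at 16 h (log2 -3.15) are given as a description.

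Among 17 genes of the NADPH oxidases, the enzyme family of DUOX2, 7 were tested. Depletion lowered 3 of the 7 at both times and raised none, where 9.55% and 10.2% of all genes were called lower and 5.89% and 5.03% higher at 0 h and 16 h. CYBA, the small membrane subunit of most NADPH oxidases, had 1904 and 1716 normalized reads in control cells before TNF-α and 699 and 599 in mutp53-depleted cells at 0 h (log2 -1.48, adjusted p = 1.5e-08 by limma), and the difference at 16 h was -1.60 (adjusted p = 5.1e-09 by limma). NOXO1, the organizer of the colonic oxidase NOX1, had 43.5 and 43.9 against 4.69 and 4.11 at 0 h (log2 -3.05, adjusted p = 4e-06 by limma). NOXA1, the activator of NOX1, was lower by -1.77 at 0 h (adjusted p = 4.4e-06 by limma) and lies in a window with a median of -0.71. With TNF-α in control cells RAC2 rose (log2 1.23, adjusted p = 8.9e-06 by limma), NOXA1 fell (log2 -1.06, adjusted p = 0.0022 by limma), and NCF4 went from 0 in both 0 h libraries to 12.6 and 5.69 (13 and 4 reads). NCF4 passed the filter only through the control 16 h libraries, and this call is a description. With TNF-α in mutp53-depleted cells NCF4 was called higher as well (log2 2.37, adjusted p = 0.031 by limma), with 8 and 2 reads at 16 h. RAC2 and NOXA1 changed by 0.99 and -0.74 there (adjusted p = 0.00011 and 0.026 by limma), under the 2-fold limit. The median of the 7 on depletion at 16 h was -1.07, beside -0.01 for all genes.

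Among 15 genes of nitric oxide synthesis other than NOS2, 13 were tested, and TNF-α lowered 1 in each line and raised none, beside 4.27% and 4.5% of all genes called lower. It was DDAH2, an enzyme that removes inhibitors of nitric oxide synthase, which fell by 1.04 in control cells (adjusted p = 6.3e-07 by limma) and by 1.39 in mutp53-depleted cells (adjusted p = 1.8e-08 by limma). Depletion lowered 2 of the 13 at 0 h and 4 at 16 h, beside 9.55% and 10.2% of all genes. ASS1, which makes the arginine precursor argininosuccinate, had 983 and 953 normalized reads in control cells before TNF-α and 342 and 300 in mutp53-depleted cells (log2 -1.59, adjusted p = 3.7e-10 by limma), and -1.99 at 16 h (adjusted p = 2.1e-11 by limma). GCHFR, the feedback regulator of the cofactor enzyme GCH1, was lower by -1.03 and -1.19 (adjusted p = 5.9e-05 and 1.2e-05 by limma). ARG2, an arginase, was lower at 16 h (log2 -1.20, adjusted p = 2.7e-09 by limma), as was NOS3 (log2 -1.62, adjusted p = 0.00065 by limma), whose window had a median of -1.02.

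Of 23 genes for regulators of the set, mostly NF-κB, C/EBP and STAT factors, 16 were tested. TNF-α raised 3 of them in control cells, and raised 2 and lowered 3 in mutp53-depleted cells. Of all genes, 2.97% were called higher in the control line, and 1.86% higher and 4.5% lower in the depleted line. IRF1 had 368 and 326 normalized reads in control cells before TNF-α and 1100 and 989 at 16 h (log2 1.59, adjusted p = 4e-10 by limma). NFKB1, which encodes the p50 subunit of NF-κB, rose by 1.33 (adjusted p = 4.8e-10 by limma), and NFKBIZ, the co-activator IκBζ known to be needed for LCN2 induction, rose by 1.23 (adjusted p = 0.0056 by limma). NFKBIZ was also higher on depletion at 0 h (log2 1.35, adjusted p = 0.0011 by limma), in a window with a median of 0.74.

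The 3 regulators lowered by TNF-α in mutp53-depleted cells were HNF4A, CEBPD and ELF3. HNF4A, a factor of intestinal and liver differentiation, had 546 and 547 normalized reads in control cells before TNF-α, 280 and 310 at 16 h. The mutp53-depleted libraries had 135 and 128 before TNF-α and 45.3 and 35.8 at 16 h. It was lower on depletion at both times (log2 -2.05 and -2.84, adjusted p = 1.2e-09 and 1.9e-11 by limma). CEBPD, an acute-phase C/EBP factor, changed with TNF-α by -0.87 in the control line and -1.67 in the depleted line (adjusted p = 4.8e-05 and 1.8e-08 by limma). ELF3, an epithelial ETS factor, had 155 and 150 in control cells at 0 h and 262 and 267 at 16 h, against 171 and 160 at 0 h and 78.8 and 59.2 at 16 h in mutp53-depleted cells (interaction -2.06, adjusted p = 2.8e-05 by limma). The interaction was called lower for 7 of the 16 and higher for 1, beside 2.21% and 0.655% of all genes, and the median of the 16 was -0.40, beside -0.03 for all genes.

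**Figure D4:**
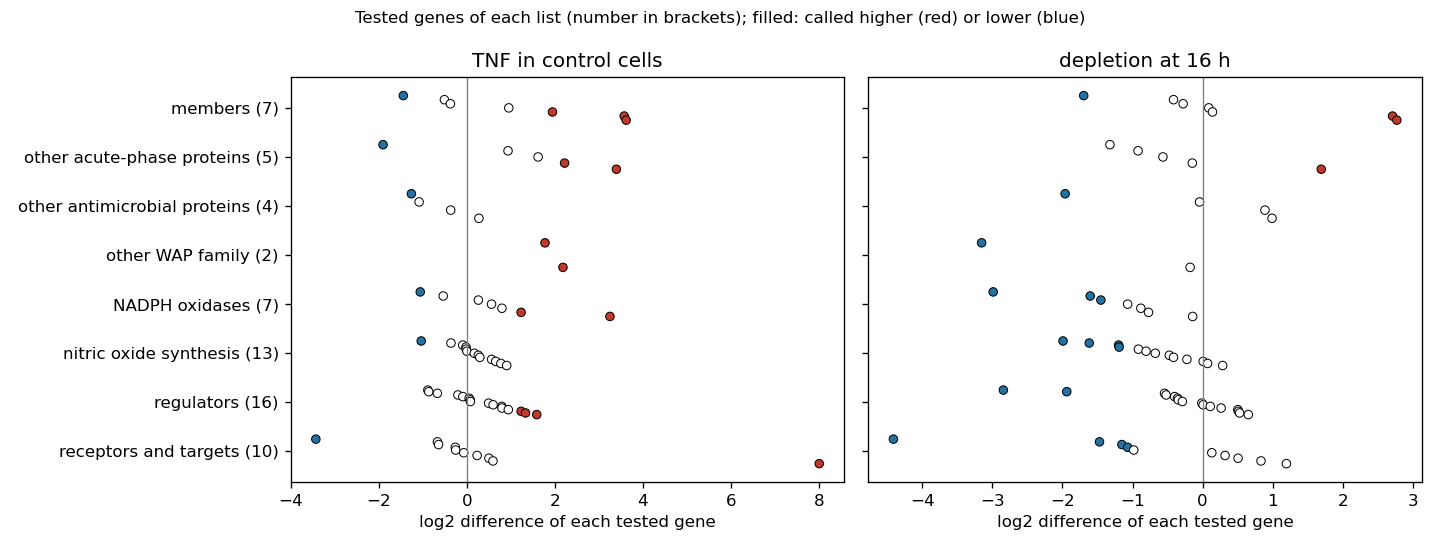
Log2 difference (x axis, a different range in each panel) of each tested gene in the 7 members and the 7 other lists (y axis, number tested in brackets), with TNF-α in control cells (left) and on depletion at 16 h (right). Filled points were called higher (red) or lower (blue). The NADPH oxidase list holds 3 genes called lower on depletion at 16 h and the nitric oxide list 4, with none called higher in either.

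Of 14 genes for receptors and protein partners of the set, 10 were tested, and with TNF-α 1 was called higher and 1 lower in control cells and 2 higher and 1 lower in mutp53-depleted cells, beside 2.97% and 4.27%, and 1.86% and 4.5%, of all genes. LRP2 (megalin), a receptor that takes up lipocalin 2, moved against LCN2 on depletion. It had 605 and 809 normalized reads in control cells before TNF-α and 71.5 and 56.9 at 16 h. In mutp53-depleted cells it had 34.2 and 27.4 at 0 h and 1.68 and 2.47 at 16 h. The TNF-α difference was -3.43 in control cells (adjusted p = 1.1e-08 by limma) and the depletion difference at 0 h -4.47 (adjusted p = 1.6e-10 by limma), and the groups of each did not overlap.

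MMP9, the gelatinase that lipocalin 2 binds, had 2.18 and 0 normalized reads in control cells before TNF-α and 568 and 370 at 16 h, and 0.67 and 0 at 0 h and 172 and 158 at 16 h in mutp53-depleted cells. It was called higher with TNF-α in both lines and lower on depletion at 16 h (log2 -1.47, adjusted p = 0.012 by limma). TLR2, a receptor for serum amyloid A, was lower on depletion at 0 h and 16 h (log2 -1.71 and -1.07, adjusted p = 8.2e-05 and 0.0051 by limma) and higher with TNF-α in mutp53-depleted cells (log2 1.23, adjusted p = 0.004 by limma). AGER, the calprotectin receptor RAGE, was lower on depletion at 16 h (log2 -1.15, adjusted p = 0.0021 by limma). In all, depletion lowered 2 of the 10 at 0 h and 4 at 16 h and raised none, beside 9.55% and 10.2% of all genes called lower and 5.89% and 5.03% higher.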

How the data were processed

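SW480 mRNA was sequenced from 4 groups of 2 libraries. The GRO-seq and ChIP-seq samples were not analysed here. Per the study's methods, the authors mapped reads with STAR and tested with edgeR; per the file headers, HOMER counted reads on RefSeq exons by strand (hg19, whereas the submitters' processing notes name hg38). The deposited values are a signal, namely whole reads multiplied by 1 factor per library. Dividing by the value of 1 read gave whole reads for 100% of values (tolerance 0.006). The authors' deposited comparison columns (log2 fold change, p-value, adjusted p-value) were not used.

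Values were compared as log2(value + 1) with limma 3.58.1 in R 4.3.3 (4 group means, empirical Bayes with trend, Benjamini-Hochberg over all genes tested) after a filter (mean of at least 2.5) that kept 14800 genes. Recovered reads were tested with edgeR 4.0.16 and DESeq2 1.42.0 as alternatives. The fits were tested on simulated data. The members and lists were chosen with earlier results of these data known, so their counts are descriptions. Genes of the lists were named if called in a TNF-α or depletion comparison, at most 3 per list and comparison by size. Shared 50-base runs were counted in GENCODE transcripts. Replicates carry letters only in the table's column names. Same-letter libraries deviated together weakly or not at all (r between -0.042 and 0.117 over 13124 genes), and no pairs were assumed. Python 3.11.15 and matplotlib 3.10.9 made the plots. The level of 1 gene, used as a check of the labels, is not reported here.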

Additional observations from a re-analysis of the deposited data

Results flagged for a closer look

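The TNF-α response of SAA1 differed between the lines, by a test of the difference itself. The interaction was -1.85 on the log2 scale, with 12.3-fold and 3.4-fold higher levels at 16 h in control and mutp53-depleted cells. SAA2 differed in the same way, with an interaction of -1.62 and rises of 12.5-fold and 3.94-fold. The 2 genes share part of their sequence, so these are not 2 independent results. At 16 h the libraries of the 2 lines overlapped for both genes, and at 0 h they did not.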

How the results depend on the processing

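Over 5 comparisons of the 7 tested genes, 623 alternative values were computed, of which 588 kept direction and call, 12 gained the call, 17 lost it and 6 changed sign without a call on either side. No member was called for the interaction with no filter on low genes (0, against 2 in the main analysis). In that setting both the estimate of the spread and the adjustment of p-values were made over all 26457 genes. Leaving out 1 library at a time gave between 1 and 3 (SAA1 alone at the lowest, LCN2 in addition without mutp53-depleted 0 h replicate A). Each sign change was of a difference that was not called. With the median of the neighbouring genes removed, the depletion difference of SAA1 at 16 h was -0.069 and that of NOS2 at 0 h -0.067. Leaving out 1 library, the depletion difference of SAA2 at 16 h ranged from -0.11 to 0.39 and that of SLPI at 16 h from -1.06 to 0.23, the TNF-α difference of SLPI in control cells from -1.15 to 0.13, and the depletion difference of NOS2 at 0 h from -0.083 to 0.153. With the replicate block the LCN2 interaction of 1.16 was called (adjusted p = 0.049 by limma), and the block changed no other call of the 7 genes. Over all genes tested, 559 were called for the interaction with the block and 424 without it. The interaction was not run with edgeR's exact test, which compares pairs of groups. The causes were not tested. With 2 libraries a group and at most 53 reads a library, PI3 and SLPI were the least precise of the tested genes.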

Other observations

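Over the 8 libraries, the 2 genes with the level most like each member were listed by Pearson's r of log2(value + 1) among 13124 genes with a mean of at least 10, as a description over 4 groups of 2 libraries. For SAA1 they were BIRC3 (r = 0.994), an NF-κB-induced inhibitor of apoptosis, and ZBED2 (0.993), and for SAA2 VSTM1 (0.996) and SAA1 (0.993). For LCN2 they were ZNF546 and MED8 (both 0.991), for WFDC2 L1CAM and PLPP3 (both 0.992), and for NOS2 WNT11 (0.995) and PAIP2B (0.987). PI3 was most like TATDN2 (0.988) and TSR1 (0.981). SLPI had the lowest values of the 7, with FANCC at 0.940 and RBM26-AS1 at 0.932.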
